A study of Oryza sativa with 32 samples.

Results

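The 100 transcripts described here are those of field-grown rice panicles that stood highest at dawn and fell furthest at some other time of day. They were taken from the deposited CPM values (read counts scaled to an equal library total) of 37829 gene identifiers. A transcript entered if its mean over 32 libraries was at least 10 CPM, if dawn had the highest of its 8 time means, and if its lowest dawn library exceeded every library of its lowest time. Of 14622 transcripts with that mean, 1741 were highest at dawn and 1226 also met the condition on overlap. These were ranked by the log2 ratio of the highest to the lowest time mean, each with 1 CPM added, and the first 100 were kept after 5 identifiers had been left out by name, all of which would have ranked among the first 100. Levels at dawn and at the lowest time therefore chose the members, and they are given as descriptions without a test.

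Untreated plants of Oryza sativa IR64 (an indica variety) grew in a field in the Philippines in the dry season of 2014, and panicles were collected when 50% of flowering was reached. Sampling began at dawn and continued at 3.5, 7 and 10.5 h after dawn, at dusk, for which the labels give no hour, and at 14, 17.5 and 21 h after dawn. Each time had 4 strand-marking poly(A) libraries, numbered as replicates 1 to 4. Dawn was sampled only at the start, so 21 h is the sampling time that comes before the next dawn. Whether replicates were taken from different plants or plots is not stated in the labels, so every p-value reflects no more than the variation among these samples, which may be technical.

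Plants anticipate sunrise: a circadian clock of morning and evening transcription factors, reset by light, sets many genes to rise in the late night. Among the processes timed in this way are the synthesis of chlorophyll and carotenoids and the assembly of the photosynthetic apparatus. A rice panicle at flowering holds green glumes, lemma and palea beside the stamens and pistil, so a panicle sample contains photosynthetic and reproductive tissue together. In such whole-tissue samples fewer cells of a type and less RNA per cell cannot be told apart.

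Library totals ran from 10.8 to 43.9 M counts (M, mega) with a median of 16.8 M. The smallest count of any member in any library was 4, and 6 of 3200 member values were below 10 counts, so counting error adds to the spread of the lowest values. The 13 floral organ identity genes used to check the tissue were detected at all times and summed to between 2164 and 3431 CPM in a library. The mature pollen list, whose 3 identifiers were paired with names from general knowledge, summed to between 1.39 and 83.6 CPM. The 7 tapetum identifiers summed to between 25.8 and 101.7 CPM, with 1 of them at 0 in all libraries of 3.5 h, dusk and 14 h, and the 2 endosperm identifiers to between 4.48 and 12.9 CPM.

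The dawn libraries differed from each other in a way that touches nearly every member. Replicate 2 was the highest dawn library for 89 members and replicate 4 the lowest for 91, and both held for 86. The median member stood at 92.1, 139, 104 and 61.6% of its dawn mean in dawn replicates 1 to 4. Replicate 2 exceeded replicate 4 by a median of 2.33-fold, with a range over members of 0.428 to 8.03. Over all 14622 transcripts with a mean of at least 10 CPM, replicate 2 was instead the lowest dawn library for 49.4% and replicate 4 the highest for 48.7%. Among the 1741 highest at dawn, replicate 2 was the highest dawn library for 48.3% and replicate 4 the lowest for 57.4%. The rule used the mean of these same dawn libraries, so it favoured transcripts that were high in any of them. These orders are in CPM, scaled by library total alone. The scaling factors used in the tests (TMM), 0.850 and 1.13, would raise levels in replicate 2 and lower them in replicate 4. The orders were not recomputed on that scale. The coefficient of variation at dawn had a median of 35.6% over members and 21.8% over those 14622 transcripts, against 16.7 and 21.5% at 21 h.

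Among the marker sums, that of the antenna list followed the same order of dawn libraries. The 14 identifiers of light-harvesting antenna proteins, paired with names from general knowledge, summed to 4023, 11576, 6638 and 2563 CPM in dawn replicates 1 to 4, so the antenna sum ranked the dawn libraries as the median member did. The floral organ sum was 3345, 2164, 3116 and 3061 CPM, lowest in replicate 2 and highest in replicate 1. The pollen sum was 10.1, 27.0, 28.7 and 1.39 CPM, highest in replicate 3 and lowest in replicate 4. It differed from the order of the median member only in replicates 2 and 3. The tapetum sum was 67.9, 45.1, 70.7 and 51.8 CPM and the endosperm sum 8.93, 9.91, 7.64 and 8.94 CPM. Neither these 2 sums nor the floral organ sum followed that order. All dawn libraries carry the same label, and the part of these differences in the members' dawn levels was not tested. Without dawn replicate 2, dawn remained the highest mean for 56 of the 100 members, and 21 h became the highest for 34. Without replicate 4 dawn remained highest for 98, and without both for 86.

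**Figure D1:**
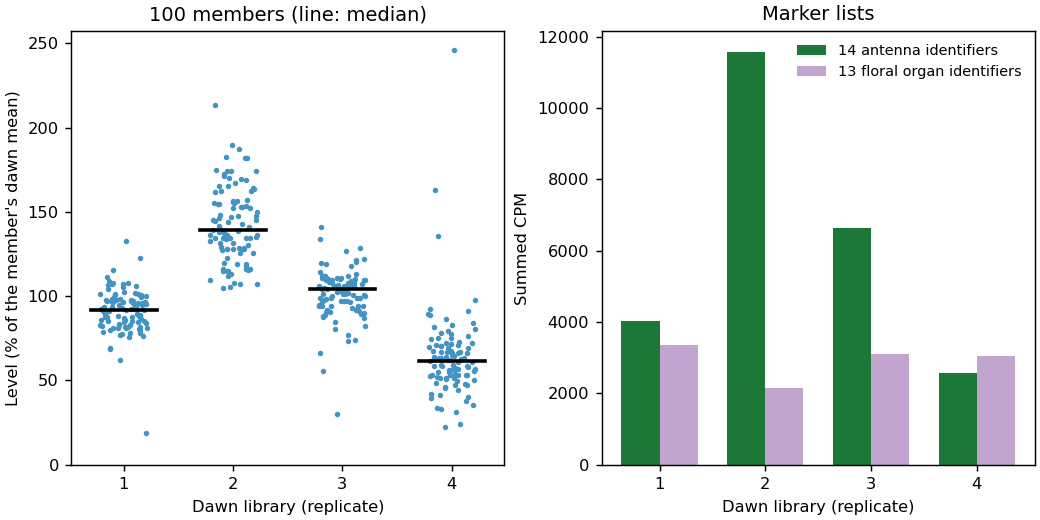
Left, the level of each of the 100 members in each dawn library as a percentage of its mean over the 4 dawn libraries, with 1 point per member and a line at the median. Right, summed CPM of the antenna and floral organ lists in the same libraries; replicate 2 has the highest member median (139%) and antenna sum (11576 CPM) and the lowest floral organ sum (2164 CPM).

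From dawn to 21 h the members traced a trough, since dawn, their highest time by the rule, was sampled only at the start. The median member stood at 59.1% of its dawn mean at 3.5 h, 32.2% at 7 h, 15.3% at 10.5 h, 13.8% at dusk, 15.2% at 14 h, 20.7% at 17.5 h and 83.3% at 21 h. The descent thus took most of the daylight hours, while most of the return fell between 17.5 and 21 h, in darkness. Together the members held between 1.00 and 2.22% of a library's counts at dawn, between 0.203 and 0.240% at 10.5 h and between 1.15 and 1.43% at 21 h. Dawn means ran from 24.3 to 951 CPM with a median of 109 CPM, and exceeded the lowest time mean by 4.85- to 173-fold with a median of 8.84-fold.

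**Figure D2:**
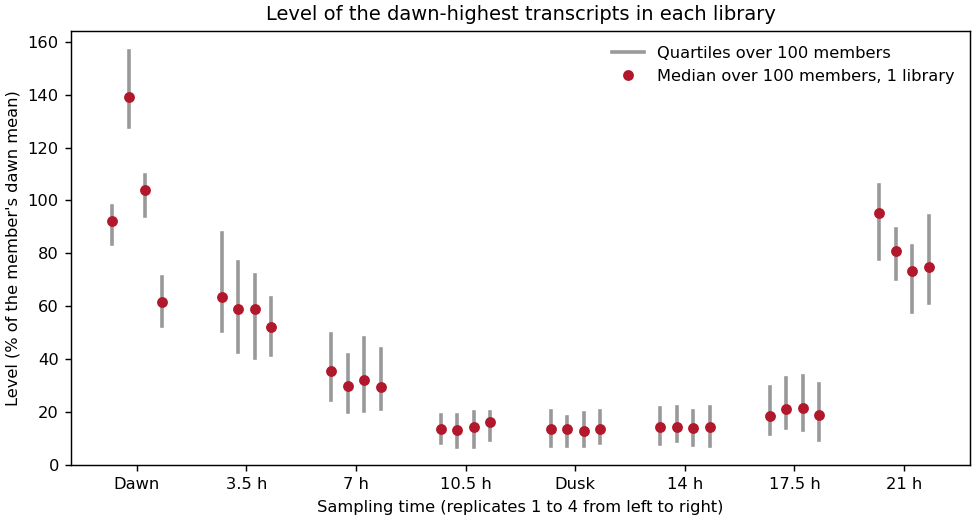
Level of the members in each of the 32 libraries, as a percentage of each member's dawn mean; points are medians over 100 members and bars run from the lower to the upper quartile. The 12 libraries of 10.5 h, dusk and 14 h lie between 12.6 and 16.0%, and the 4 libraries of 21 h between 73.2 and 95.2%.

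The lowest mean fell at dusk for 36 members, at 10.5 h for 27, at 14 h for 25, at 17.5 h for 8 and at 7 h for 4. Members lowest at 10.5 h stood at a median of 48.0% of their dawn mean at 3.5 h and 31.7% at 17.5 h. Members lowest at 14 h stood at 67.8% at 3.5 h and 17.0% at 17.5 h. For 80 members the second highest time was 21 h, for 19 it was 3.5 h and for OS03G0100030 it was 7 h. Among all 1741 transcripts highest at dawn the second highest time was 21 h for 44.5%, 14 h for 15.1% and 3.5 h for 8.67%. The adjoining groups of transcripts, highest at 21 h (940) or at 3.5 h (937), had dawn as the second highest time for 52.4 and 17.7% of their members.

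**Figure D3:**
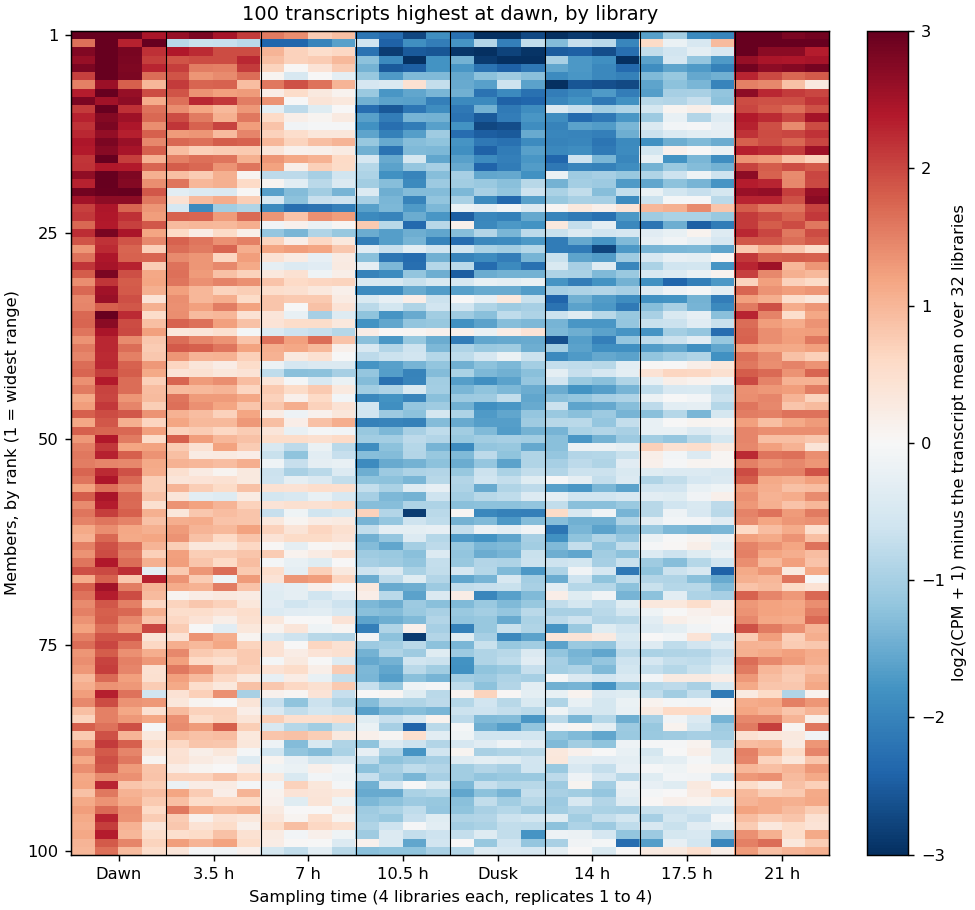
Each row is 1 of the 100 members, in rank order, and each column 1 library; colour gives log2(CPM + 1) minus the transcript's mean over 32 libraries. Red fills the columns of dawn and 21 h and part of those of 3.5 h, and blue those from 10.5 to 17.5 h; dawn replicate 2 is the darkest red and replicate 4 the palest dawn column for most rows.

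Names were sought only through pairs of identifier and symbol written from general knowledge, many of them for photosynthesis and pigments. Only 3 members had such a pair that the reference table held on the same chromosome and in order. Each of the 3 is a known component of greening, and the lists held many genes of that kind. CHLH (OS03G0323200) encodes the H subunit of magnesium chelatase, the enzyme that inserts magnesium into protoporphyrin at the start of the chlorophyll branch. PSY2 (OS12G0626400) encodes a phytoene synthase, which catalyses the first committed step of carotenoid synthesis. GLK1 (OS06G0348800) encodes a GOLDEN2-like transcription factor that activates nuclear genes of chloroplast development, among them genes of chlorophyll synthesis and antenna proteins.

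The CPM of CHLH in the 4 libraries were 536, 1023, 723 and 350.4 at dawn, 692, 637, 722 and 460.3 at 3.5 h, and 486, 514, 488 and 377 at 7 h. They were 49.4, 48.3, 31.1 and 64.3 at 14 h, the lowest time, 81.2, 82.8, 84.2 and 70.4 at 17.5 h, and 373, 458, 373 and 316 at 21 h. The means at 3.5 and 7 h were 95.4 and 70.9% of the dawn mean, and the dawn libraries overlapped those of both 3.5 h and 21 h. At 21 h every library lay above every 17.5 h library, with a log2 difference of 2.47 (SE 0.29, adjusted p = 9.8e-07). All 21 h libraries lay below all 3.5 h libraries, yet the difference of -0.82 (SE 0.28) did not pass over all genes (adjusted p = 0.0667) and passed in 7 of 39 alternatives.

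For PSY2 the libraries had 123, 214, 135 and 134 CPM in the dawn samples, then 107, 99.4, 61.3 and 94.4 (3.5 h) and 53.2, 46.5, 32.9 and 46.6 (7 h). They had 9.05, 9.90, 8.52 and 14.3 CPM in the dusk samples, followed by 27.8, 32.6, 31.8 and 40.0 (17.5 h) and 172, 138, 140.0 and 137 (21 h). Its libraries of 21 h lay above all but replicate 2 of dawn, and above all libraries of 3.5 h. It rose at 21 h relative to 17.5 h by 2.37 on the log2 scale (SE 0.30, adjusted p = 3.0e-06) and fell by 1.13 at 7 h relative to 3.5 h (SE 0.29, adjusted p = 0.0129). The difference between 21 h and 3.5 h, 0.63 (SE 0.28), did not pass (adjusted p = 0.202). Without replicate 3 of 7 h the adjusted p of the morning fall was 0.0587.

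For GLK1 the libraries had 75.1, 143, 79.4 and 51.1 CPM in the dawn samples, then 94.8, 82.1, 75.6 and 53.3 (3.5 h) and 91.6, 69.5, 94.5 and 53.4 (7 h). They dropped to 11.6, 7.89, 12.6 and 9.59 CPM by 10.5 h and had 3.80, 8.53, 6.24 and 12.5 (14 h), 16.7, 18.2, 22.5 and 12.6 (17.5 h) and 101, 77.6, 69.7 and 88.9 (21 h). The level stayed within the range of the dawn libraries until 7 h and all 10.5 h libraries lay below it. The 7 h mean was 88.6% of the dawn mean, the highest share at that time among the 100 members, whose median was 32.2%. GLK1 rose at 21 h relative to 17.5 h by 2.49 (log2, SE 0.33, adjusted p = 5.8e-06). The log2 differences between 21 h and 3.5 h, 0.06 (SE 0.31), and between 7 h and 3.5 h, -0.13 (SE 0.31), did not pass (adjusted p = 0.945 and 0.850) and changed sign under some settings.

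**Figure D4:**
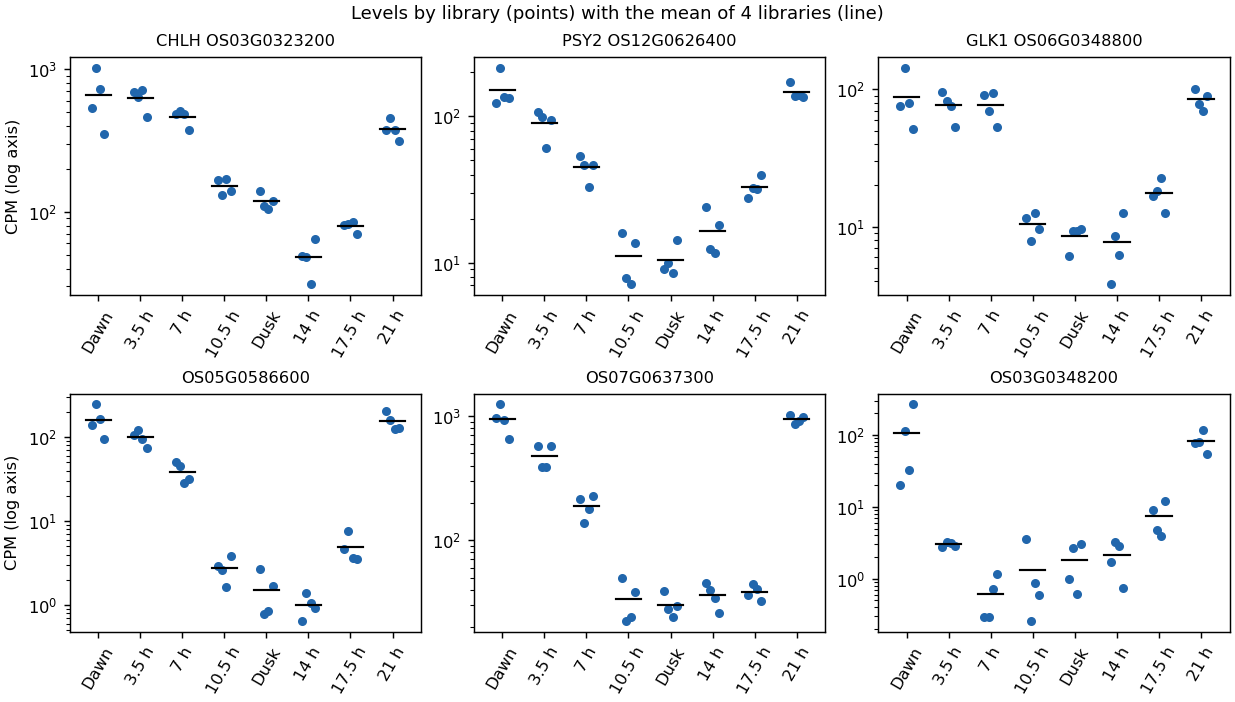
CPM of CHLH, PSY2, GLK1 and 3 further members in each library, on logarithmic axes that differ between panels; points are libraries, with replicates 1 to 4 from left to right, and lines are means of 4. CHLH and GLK1 keep 95.4 and 87.7% of their dawn mean at 3.5 h, where OS03G0348200 keeps 2.81%.

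The remaining 97 members are given by identifier, since the files hold no names and no pair checked against the reference table gave them one. Among the widest relative ranges were those of some transcripts that were close to absent around dusk. OS05G0586600, first in rank, had 139.7, 245, 163 and 94.6 CPM in the dawn libraries, then 50.3, 45.0, 28.9 and 31.7 (7 h), 0.651, 1.40, 1.05 and 0.929 (14 h), 4.64, 7.66, 3.63 and 3.53 (17.5 h) and 205, 160.2, 124 and 130.1 (21 h). Its dawn and 21 h libraries overlapped, and both lay far above all libraries from 10.5 to 17.5 h. The rise at 21 h relative to 17.5 h was 5.23 on the log2 scale (SE 0.44, adjusted p = 3.7e-09), the largest among the members. OS02G0829850, of rank 3, followed a like course: its means were 96.5 ± 42.9 CPM at dawn, 54.4 ± 8.62 CPM at 3.5 h, 19.5 ± 3.20 CPM at 7 h, 0.638 ± 0.139 CPM at dusk, 7.74 ± 1.13 CPM at 17.5 h and 83.5 ± 20.1 CPM at 21 h (SD, n = 4 each).

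OS07G0637300 had the highest dawn level of the members. Its libraries had 963, 1241, 939 and 659 CPM in the dawn samples, then 571, 392, 387 and 575 (3.5 h), 39.1, 28.1, 24.0 and 29.8 (dusk), 36.1, 44.1, 40.3 and 32.4 (17.5 h) and 1012, 871, 907 and 988 (21 h). The level was flat from 10.5 to 17.5 h, with time means between 30.2 and 38.2 CPM, and every 21 h library then exceeded every 17.5 h library, by 4.84 on the log2 scale (SE 0.33, adjusted p = 1.2e-10). OS11G0603200, with 1 of the 3 highest dawn means, instead left its trough gradually: its means were 57.8 ± 10.7 CPM at 10.5 h, 67.6 ± 8.64 CPM at dusk, 104 ± 17.2 CPM at 14 h, 180.0 ± 18.4 CPM at 17.5 h and 449.7 ± 33.9 CPM at 21 h, after 568 ± 162 CPM at dawn (SD, n = 4 each).

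The test over the 8 times called all 100 members, where it called 42.1% of the 25766 genes tested. The members were chosen by these differences, and their count is given only beside that share. The rule did not fix the order of 21 h and 3.5 h, of 21 h and 17.5 h, or of 7 h and 3.5 h, apart from members whose lowest time was one of the pair. It did choose transcripts with wide ranges, which leaves more room for a difference than most genes have, so each count is given beside the share among all genes.

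In the last part of the night the members rose almost without exception. At 21 h relative to 17.5 h, 96 of 100 members were higher (edgeR quasi-likelihood test, adjusted p under 0.05) and 0 were lower, beside 5.04% of all genes tested that were higher and 3.53% that were lower. The 8 members whose lowest time was 17.5 h could not be lower at 21 h, and without them 89 of 92 passed. No member was lower at an unadjusted p under 0.05 (0 of 100), and DESeq2 also gave 0. The log2 difference had a median of 2.21 over the members and -0.04 over all genes tested, and it was positive for all 100.

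The 4 members that did not pass, which are named here after their values were seen, also had positive differences. These were 0.82 (SE 0.28) for OS01G0794400, 1.22 (SE 0.47) for OS01G0266800, 1.45 (SE 0.51) for OS08G0126700 and 0.94 (SE 0.35) for OS02G0166200, with adjusted p between 0.0704 and 0.108. OS08G0126700 had 41.5, 51.6, 18.0 and 37.4 CPM at 21 h, against 20.0, 16.2, 20.6 and 7.19 CPM at 17.5 h, and the groups overlapped through replicate 3 of 21 h. It was among the 8 members lowest at 17.5 h, so the rule fixed the sign of its difference, which is not read as a test.

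During the morning the members declined. At 7 h relative to 3.5 h, 58 of 100 were lower and 0 higher, beside 3.33% of all genes tested that were lower and 5.29% that were higher. Setting apart the 4 members whose lowest time was 7 h left 54 of 96. The median log2 difference was -0.98 over the members and 0.02 over all genes tested. It was positive for 2 members (OS02G0166200 and OS03G0100030), neither at an unadjusted p under 0.05, and DESeq2 also called 0 members higher. OS08G0178800 had 8.07, 5.17, 7.67 and 6.02 CPM at 7 h, against 30.7, 20.3, 21.8 and 26.6 CPM at 3.5 h, without overlap, and fell by 2.01 (log2, SE 0.32, adjusted p = 1.8e-04).

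The 2 sides of dawn were not mirror images for every member. At 21 h relative to 3.5 h, 22 members were higher and 1 lower, beside 3.73% of all genes tested that were higher and 3.97% that were lower, and 77 did not pass. The median log2 difference was 0.30 over the members and 0.01 over all genes tested, and 78 of 100 members had a positive difference. The 21 h libraries all lay above the 3.5 h libraries for 44 members, beside 8.34% of the 14622 transcripts with a mean of at least 10 CPM. Of the 22 members that were higher, 12 were among the 27 whose lowest time was 10.5 h, 6 among the 36 lowest at dusk, 3 among the 4 lowest at 7 h and 1 among the 25 lowest at 14 h.

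The largest such difference belonged to OS03G0348200, whose transcript had all but gone by 3.5 h. It had 77.2, 79.0, 118 and 54.5 CPM at 21 h, against 2.80, 3.27, 3.19 and 2.85 CPM at 3.5 h. The groups stood far apart, with a log2 difference of 4.65 (SE 0.72, adjusted p = 7.6e-05). At dawn the same transcript had 20.4, 113, 32.3 and 265 CPM, a coefficient of variation of 105%, the highest of the members. Here replicate 4 was the highest dawn library, as it was also for OS04G0532400 and OS01G0931000, named after their values were seen, against the order that 86 members shared. OS03G0348200 fell further by 7 h, to between 0.292 and 1.18 CPM. That was its lowest time, which the rule used, so this fall is described without a test.

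OS01G0292700 and OS03G0133300 shared this early loss. OS01G0292700 had 27.0, 23.0, 23.2 and 31.7 CPM at 21 h, against 4.60, 1.14, 2.87 and 3.26 CPM at 3.5 h, a log2 difference of 3.06 (SE 0.30, adjusted p = 1.1e-07). OS03G0133300 had 155, 159, 108 and 158 CPM at 21 h, against 19.6, 18.6, 18.2 and 25.4 CPM at 3.5 h, a difference of 2.76 (SE 0.28, adjusted p = 2.2e-07). In neither did the libraries overlap. All 3 transcripts were lowest at 7 h, and they parted after that: at 17.5 h OS01G0292700 had returned to 53.8% of its dawn mean, and OS03G0348200 and OS03G0133300 to 6.93 and 9.93%.

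OS08G0237200 and OS03G0308800 had smaller differences of the same sign. OS08G0237200 had 109, 90.7, 67.3 and 87.2 CPM at 21 h, against 33.6, 25.7, 33.1 and 25.0 CPM at 3.5 h, with a difference of 1.52 (SE 0.26, adjusted p = 3.4e-04). OS03G0308800 had 308, 292, 266 and 361 CPM at 21 h, against 117, 101, 104 and 106 CPM at 3.5 h, with a difference of 1.44 (SE 0.23, adjusted p = 1.5e-04). OS11G0603200 and OS07G0637300, among the most abundant, differed by 0.93 (SE 0.18, adjusted p = 0.0011) and 0.90 (SE 0.28, adjusted p = 0.0462). The call of OS07G0637300 held in 16 of 39 alternative settings.

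OS09G0527900 was the single member that was lower at 21 h than at 3.5 h. It had 83.3, 125, 85.1 and 77.9 CPM at 21 h, against 161, 137, 148 and 137 CPM at 3.5 h. All 21 h libraries lay below all 3.5 h libraries, and the log2 difference was -0.74 (SE 0.21, adjusted p = 0.0262). The call held in 33 of 39 alternatives, with adjusted p up to 0.11 where replicate 4 of 21 h was left out. The member count that was lower varied between 0 and 3 with the library left out.

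**Figure D5:**
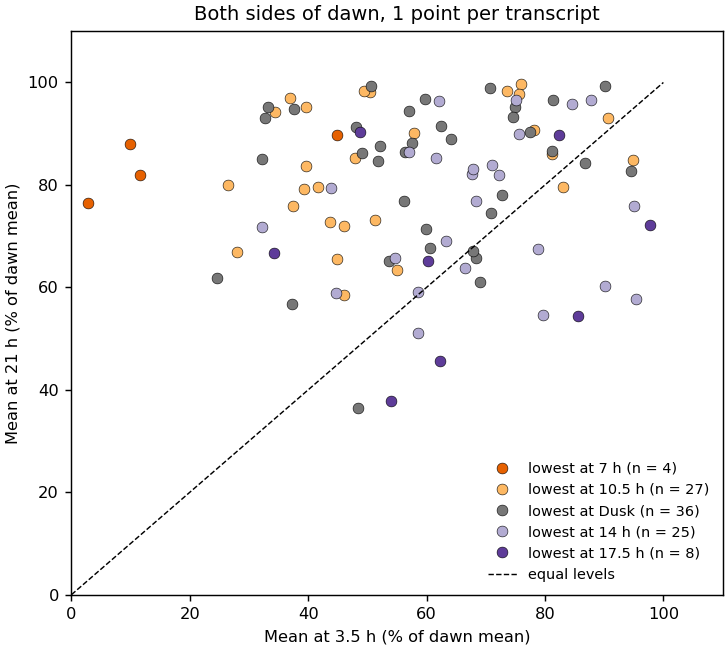
Mean at 21 h (vertical) against mean at 3.5 h (horizontal), each as a percentage of the dawn mean, with 1 point per member, coloured by the time of the lowest mean; the dashed line marks equal levels. The 3 points at the far left are OS03G0348200, OS01G0292700 and OS03G0133300, which stood at 76.4, 87.9 and 82.0% of the dawn mean at 21 h and at 2.81, 9.94 and 11.6% at 3.5 h.

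The spread between dawn libraries ranged widely over the members. OS02G0539100 had the lowest dawn coefficient of variation, 10.3%, with 132, 157, 133 and 125 CPM at dawn. OS08G0440800, with 11.5%, came next at 447, 431, 424 and 341 CPM at dawn and 439, 391, 421 and 386 CPM at 21 h, a 21 h mean that was 99.7% of the dawn mean. At the other end, OS12G0448900 had 92.3, 253, 87.4 and 41.9 CPM at dawn, and OS08G0126700 had 83.6, 179, 109 and 22.2 CPM. These last 2 were also the members with the lowest 21 h means relative to dawn, 36.4 and 37.8%. In OS12G0448900 dawn replicate 4 lay below 2 of the 4 libraries of 21 h, which were 52.4, 49.6, 38.1 and 32.8 CPM.

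The libraries of dawn and 21 h overlapped for 99 members. All dawn libraries lay above all 21 h libraries for 1 member, beside 1.35% of the 14622 transcripts with a mean of at least 10 CPM, and above all 3.5 h libraries for 35 members, beside 12.7%. The 21 h mean reached at least 90% of the dawn mean for 31 members and was under 50% for 3. The rule fixed dawn as the highest time, so neither of these distances was tested.

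The gene lists drawn up for the photosynthetic and metabolic processes of the panicle held few of the members. Over all 14622 transcripts with a mean of at least 10 CPM, 1741 were highest at dawn and 100 were members. The chlorophyll list holds genes of both synthesis and breakdown. Of its genes, 22 had a mean of at least 10 CPM, 6 of these were highest at dawn and 1, CHLH, was a member. A further 2 met every condition and were among the 5 identifiers left out by name. Of 16 carotenoid and isoprenoid genes 4 were highest at dawn, with PSY2 as the member. The light signalling list, with photoreceptors and plastid sigma factors, had 9 of 22 highest at dawn, of which 3, including GLK1, were members. For the photorespiration list these counts were 3 of 8 with 2 members, for the photosystem list 4 of 25 with 1 member and for the flowering list 2 of 15 with 1 member. The members of these last 3 lists, and 2 of the light signalling list, rest on pairings with names that the reference table does not hold, so they are not named. The lists of antenna proteins, the Calvin cycle, starch synthesis and the circadian clock had 0 members, and in them 1 of 14, 4 of 16, 7 of 22 and 1 of 14 transcripts were highest at dawn. The Calvin cycle, starch and clock lists each held 1 of the 5 identifiers left out, and without that exclusion each would have had 1 member. That of the clock list was LHY (OS08G0157600), a morning factor and the single clock transcript highest at dawn. The other process lists also had 0 members. Of these the hormone list had 6 of 48 highest at dawn, sugar 3 of 22, transport 3 of 19 and heat and redox 1 of 12. Cold and dehydration had 3 of 11, nitrogen 1 of 9, and starch breakdown and other plastid genes 0 of 6 each.

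In the contrast of 21 h with 17.5 h, where 5.04% of all genes were higher, 7 of 22 chlorophyll genes rose and none of that list fell. The median log2 difference of this list was 0.13. The carotenoid and isoprenoid list had 5 of 17 higher with a median of 0.42, the light signalling list 7 of 23 higher with a median of 0.37, and none fell in either. The lists of starch synthesis (6 of 24 higher), photosystems (5 of 25) and the Calvin cycle (3 of 16) also had 0 lower. Their medians were 0.18, 0.55 and 0.42. Among the genes that rose in the chlorophyll, carotenoid and light signalling lists were the members CHLH, PSY2 and GLK1. In further lists some genes fell: of 27 transport genes 9 were higher and 1 lower, with a median of 0.48. The flowering list had 5 higher and 1 lower of 20 (median 0.17). Sugar had 3 and 2 of 24 (0.09), and hormones 4 and 3 of 60 (0.13). Cold and dehydration had 3 and 2 of 17 (0.24). Heat and redox had 2 and 2 of 16 (-0.17), and nitrogen 1 and 1 of 12 (0.01). The photorespiration list had 2 higher and 1 lower of 8 (median -0.08), the clock list 2 higher and 5 lower of 14 (median 0.19), and the list of other plastid genes 0 higher and 2 lower of 6 (median -0.40). Of the 14 antenna identifiers 12 rose, with a median of 2.37, close to that of the members. The antenna list parted from the members on the other side of dawn: at 21 h relative to 3.5 h, 11 of 14 antenna identifiers were lower with a median of -2.92, where the members' median was 0.30. Their sum stood at 2563 to 11576 CPM at dawn, 10675 to 25393 CPM at 3.5 h, 14732 to 23482 CPM at 7 h and 1321 to 3511 CPM at 21 h, so most antenna identifiers were highest after dawn (8 of 14 at 3.5 h).

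The members lay on all 12 chromosomes. Chromosome 3 held 19, chromosome 1 held 17 and chromosome 2 held 13, where 14.6, 14.3 and 12.4% of the transcripts with a mean of at least 10 CPM lie. By the order of the identifiers, 4 pairs of members lay near each other, with 3, 10, 11 and 13 identifiers in between. No background was computed for such pairs, so their count is not read as a result. The closest were OS01G0361500 and OS01G0362100, with 3 identifiers between them. These 2 had dawn means of 33.6 and 108 CPM and 21 h means of 19.7 and 95.3 CPM.

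The boundary of the selection was not a gap. The last members, OS02G0460200, OS02G0610500 and OS02G0617600, had ranking values of 2.25, 2.25 and 2.24. The first transcripts beyond them, OS02G0766700, OS04G0450100 and OS01G0695300, had 2.24, 2.22 and 2.21.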

How the data were processed

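RNA of 32 panicle samples was sequenced, 4 at each of 8 times; groups and replicate numbers are those of the labels. The submitters' processing notes name HTSeq (version 0.6.0), TopHat2 (version 2) and the rice build IRGSP-1.0, which is of a japonica rice while the samples are indica. Neither the annotation release nor HTSeq's strand option is given in the sources used here. The authors deposited whole-number counts per gene and CPM values; dividing each count by its library's total gave the deposited CPM to within 5.0e-07.

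The members were selected with pandas 2.3.3 from the deposited CPM, in which the levels in the text are given. Tests used the counts, in edgeR 4.0.16 (R 4.3.3; quasi-likelihood), on the 25766 genes that filterByExpr kept, with TMM factors, all 32 libraries and 1 mean per time, and Benjamini-Hochberg adjustment at 0.05 over all genes tested; the steps were tested on simulated data. Log2 differences are later minus earlier time, with a standard error computed back from the difference and its F value. TMM factors of the dawn libraries were 1.03, 0.850, 0.935 and 1.13. Alternatives were DESeq2 1.42.0, other scalings, no filter, limma 3.58.1 on log2(CPM + 1), a replicate block and leaving out each library.

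Members and gene lists were chosen with earlier results of these data known. Of 395 pairs of identifier and symbol written from general knowledge, 217 symbols stood in the reference table (assembly ASM3414082v1) on the same chromosome and in order, 170 were not in it, and 8 stood elsewhere and were dropped. Genes named are the members with a symbol in that table, the 15 of highest rank, the 10 of highest dawn mean, the 5 with the highest and the 5 with the lowest ratio of 21 h to 3.5 h, the 3 with the highest and the 3 with the lowest dawn coefficient of variation, and 3 on each side of the rank limit. Values are given for those on which a result turns, and genes outside this rule were named after their values were seen.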

Additional observations from a re-analysis of the deposited data

Results flagged for a closer look

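In 11 of 176 sets of 4 libraries (22 quantities at 8 times), 1 library stood far from the other 3 by Dixon's criterion, where chance gives about 1 set in 20. For PSY2 these were dawn replicate 2, at 214 CPM beside 123 to 135 CPM, and 21 h replicate 1, at 172 CPM beside 137 to 140.0 CPM. For GLK1 it was dusk replicate 1, at 6.15 CPM beside 9.21 to 9.53 CPM. For OS03G0133300 they were 10.5 h replicate 1, at 18.5 CPM beside 8.35 to 9.59 CPM, and 21 h replicate 3, at 108 CPM beside 155 to 159 CPM. For OS09G0527900 they were 10.5 h replicate 3, at 32.4 CPM beside 37.4 to 38.1 CPM, and 21 h replicate 2, at 125 CPM beside 77.9 to 85.1 CPM. OS02G0539100 had 35.1 CPM in 10.5 h replicate 1, beside 48.3 to 49.7 CPM, and OS03G0308800 had 12.3 CPM in 10.5 h replicate 2, beside 21.8 to 23.7 CPM. The floral organ sum was 2560 CPM in 21 h replicate 1, beside 3275 to 3372 CPM. The pollen sum was 66.1 CPM in dusk replicate 1, beside 6.14 to 9.72 CPM. Replicate 1 also had the highest pollen sum at 10.5 h (83.6 CPM) and at 14 h (61.7 CPM).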

How the results depend on the processing

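The selection rested most on dawn replicate 2. Leaving out each library in turn kept 55 to 100 of the members among the first 100, and dawn as the highest mean for 56 to 100; in both cases the lowest value came without dawn replicate 2. TMM-scaled CPM kept dawn highest for 93, and leaving out dawn replicates 2 and 4 together, a choice made after seeing the data, kept 79 members. At 21 h relative to 3.5 h, the count of members that were lower was 1, and it was 3 with DESeq2, 2 with library totals alone, 2 with the replicate block, 3 without dawn replicates 2 and 4 together, and 0 to 3 on leaving out each library. Over all genes, leaving out each library moved the calls to between 1175 and 2317 of 1984 for 21 h relative to 3.5 h, 1423 and 3424 of 2208 for 21 h relative to 17.5 h, and 1179 and 2678 of 2221 for 7 h relative to 3.5 h; the cause was not tested. Members that were higher at 21 h numbered 17 to 31 relative to 3.5 h and 87 to 91 relative to 17.5 h, and members that were lower at 7 h 47 to 65, over these settings and with the members at their lowest time set apart. Of 535 recomputed counts 515 stayed within 1.5 times the value reported. Scaling by library totals alone moved the median of all genes to -0.24, 0.10 and 0.14 on the log2 scale for 21 h relative to 17.5 h, 21 h relative to 3.5 h and 7 h relative to 3.5 h, and that of the members to 1.98, 0.38 and -0.85. The difference of GLK1 between 21 h and 3.5 h ran from -0.11 to 0.19 on leaving out each library, negative without 3.5 h replicate 4 (-0.11) and without 21 h replicate 1 (-0.084). Its difference between 7 h and 3.5 h was 0.015 with library totals alone and 0.0084 with limma, and ran from -0.30 to 0.018 on leaving out each library, positive without 7 h replicate 4. Libraries with the same replicate number in different times had a mean correlation of 0.06 in their deviations from the time means (55 of 112 pairs over 0.1). Other pairs had a mean of -0.02 (129 of 336 over 0.1). Single pairs ranged from -0.82 to 0.79 and from -0.81 to 0.86. The numbers were not taken to pair samples, though these means cannot settle whether they share a source. Replicate 1 was the lowest library for 62.2, 59.6 and 50.7% of the 14622 transcripts at 10.5 h, dusk and 14 h. With the replicate block 22 members were higher at 21 h relative to 3.5 h. At the lowest levels, near 1 CPM, a library of 10.8 M counts holds few reads per member, and depth limits those folds.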
